A study of Mus musculus with 12 samples.

Results

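The 10 genes described here encode the liver X receptors (LXRs), PPARG and the proteins that move, store and hydrolyze cholesterol: *Nr1h2*, *Nr1h3*, *Pparg*, *Abca1*, *Abcg1*, *Apoe*, *Mylip*, *Srebf1*, *Soat1* and *Nceh1*. They were chosen by symbol, as members of this pathway, and were matched to Ensembl identifiers through GENCODE M21. All 10 were found among the 53379 genes of the count table, and all 10 passed the filter on low counts that left 12386 genes for testing. RNA was sequenced from bone marrow-derived macrophages (BMDMs) of 4 adult male mice of the C57Bl/6J strain. From each mouse, 1 culture stayed untreated and others were given 1 µM fenoterol for 1 h or 4 h, which makes 4 libraries in each of 3 groups and 12 in all. All groups shared the growth in L929-conditioned medium and the overnight culture after plating, and fenoterol was added to that medium without replacing it. Fenoterol is an agonist of the beta2-adrenergic receptor (B2AR), and the comparisons ask how the macrophage transcriptome responds soon after this receptor is activated.

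LXRs are nuclear receptors that bind oxysterols and, paired with a retinoid X receptor (RXR), act on genes for cholesterol efflux. In macrophages their best known targets are the transporters ABCA1 and ABCG1, apolipoprotein E, the transcription factor SREBP1c, which is a product of *Srebf1*, and the ubiquitin ligase IDOL, the product of *Mylip*. PPARG is a fatty acid-sensing nuclear receptor that also pairs with RXR and is known upstream of *Nr1h3* in lipid-loaded macrophages. Cholesterol that is not exported is esterified by ACAT1, encoded by *Soat1*, and released again from its esters by hydrolases that include the product of *Nceh1*.

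RefSeq promoter windows, from 250 bases before to 50 bases after a transcript start in GRCm38.p6, were found for 9 of the 10 genes, in 16 windows. The set of windows used held none for *Abcg1*. Motifs were searched on both strands, and a match is given only as a description of the letters. The full cAMP response element TGACGTCA stood in 0 of the 16 windows, against 1.79% of 32817 windows of all genes. Its shorter form TGACG, which lies within the full one, stood in the windows of *Nr1h2* and *Soat1*, at bases 14 and 4 of the transcript, against 20.8% of all windows. The exact LXR element (the 2 half-sites AGGTCA as a direct repeat, spaced by 4 bases) was in none of the 16 windows and in 0.0152% of all windows. With up to 2 of its 12 half-site bases changed it was still in none of the 16, against 3.02% of all windows. Elements with more bases changed, or outside these windows, were not searched for. CCAAT stood in 7 windows of 5 genes (*Pparg*, *Mylip*, *Srebf1*, *Soat1* and *Nceh1*) against 37.4% of all windows. The E-box CACGTG stood in 2 windows, those of *Abca1* and *Nceh1*, against 7.15% of all windows. The bases upstream of the start are shown for *Mylip* (chr13:45389492-45389741, plus strand), which holds 3 CCAAT letters, and for the pair of genes with the E-box, *Nceh1* (chr3:27182754-27183003, plus strand) and *Abca1* (chr4:53159896-53160145, minus strand). Capitals mark CCAAT, read here as ATTGG from the other strand, and CACGTG. In *Mylip* the matches begin 190, 108 and 67 bases before the start, in *Nceh1* the ATTGG begins 50 and the E-box 26 bases before it, and in *Abca1* the E-box begins 147 bases before it. Each line runs 5′ to 3′ on the strand of its gene.
Mylip: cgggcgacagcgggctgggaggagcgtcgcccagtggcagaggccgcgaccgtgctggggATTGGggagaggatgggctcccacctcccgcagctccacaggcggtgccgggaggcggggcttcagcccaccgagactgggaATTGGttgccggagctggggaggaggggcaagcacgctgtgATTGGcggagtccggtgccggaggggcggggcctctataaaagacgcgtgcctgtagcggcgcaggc
Nceh1: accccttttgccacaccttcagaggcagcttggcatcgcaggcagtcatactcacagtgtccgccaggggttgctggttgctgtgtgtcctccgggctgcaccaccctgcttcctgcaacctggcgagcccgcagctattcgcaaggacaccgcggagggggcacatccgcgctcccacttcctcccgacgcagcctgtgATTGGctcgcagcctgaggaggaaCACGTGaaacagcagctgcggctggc
Abca1: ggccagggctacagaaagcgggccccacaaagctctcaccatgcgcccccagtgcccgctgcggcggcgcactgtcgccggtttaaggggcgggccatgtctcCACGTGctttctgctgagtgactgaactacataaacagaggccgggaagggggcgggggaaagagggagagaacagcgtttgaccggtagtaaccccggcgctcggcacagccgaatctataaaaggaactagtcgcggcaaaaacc

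The libraries held 14580533 to 22580692 counts without treatment, 18288911 to 20549801 at 1 h and 18446470 to 24153284 at 4 h. Values are given as normalized counts, that is, counts scaled to the mean library size with edgeR's TMM factors. The 7 macrophage markers summed to 745372 to 781582 normalized counts without treatment, to 721375 to 848623 after 1 h and to 700116 to 787567 after 4 h, while neutrophil markers summed to at most 676, fibroblast markers to at most 1190 and dendritic cell markers to at most 36.6 in any library. Lymphocyte, adipocyte, and erythroid and mast cell markers summed to at most 6.26, 1.34 and 3.07, with *Plin1*, *Lep*, *Hbb-bs* and *Hba-a1* at 0 in all 12 libraries. In bulk RNA, fewer cells of a type and less RNA per cell cannot be told apart. Libraries with the same mouse number came from the same mouse, and the fit with the mouse as a block is given below for each change of call against untreated BMDMs among the 10 genes and the pathway lists. Over all 12386 genes the block called 13.3% higher and 13.7% lower at 1 h, and 23.6% higher and 23.8% lower at 4 h.

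After 1 h of fenoterol, 3 of the 10 genes changed: *Mylip* and *Abcg1* fell to 0.362 and 0.670 times the untreated level, and *Nceh1* rose 1.33-fold. After 4 h, 7 had changed: *Pparg* fell to 0.241 times the untreated level, *Abcg1* to 0.489, *Mylip* to 0.529 and *Soat1* to 0.661, while *Srebf1* rose 1.56-fold, *Abca1* 1.25-fold and *Nceh1* 1.16-fold. A gene is called changed where the adjusted p of edgeR's quasi-likelihood test, with Benjamini-Hochberg adjustment over all 12386 genes, was under 0.05, and the standard errors (SE) and adjusted p below are from that fit. It has no term for the mouse. With the mouse as a block the same test also called *Nr1h2* (adjusted p = 0.0478) and *Apoe* (adjusted p = 0.00295) at 4 h. Among all genes tested, 10.0% were called higher and 10.1% lower at 1 h, and 19.7% higher and 20.4% lower at 4 h. Of the 10 genes, 1 was higher and 2 were lower at 1 h, and 3 were higher and 4 lower at 4 h, so the share that rose at 1 h lay near the background. The median log2 fold change of the 10 genes was -0.02 at 1 h and -0.28 at 4 h, and that of all genes was -0.005 and 0.004. Both comparisons share the 4 untreated libraries.

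**Figure D1:**
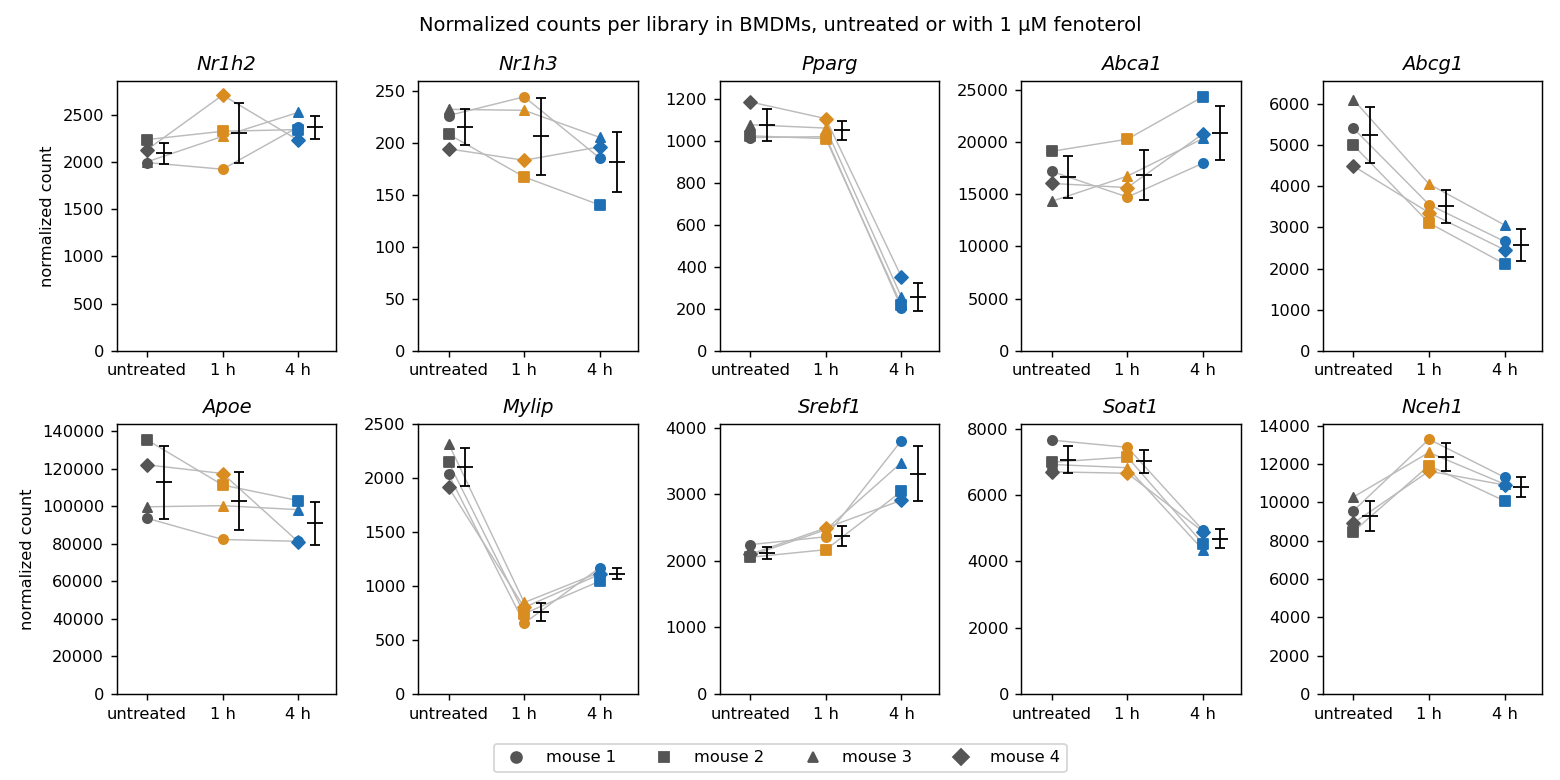
Normalized count (vertical axis, from 0, on a separate scale for each gene) of the 10 genes in the 12 libraries, by group along the horizontal axis. Symbols mark the mouse, grey lines join libraries of the same mouse, and black bars give the mean ± SD of 4 libraries. *Pparg* lies between 1011 and 1186 in the untreated and 1 h libraries and between 204 and 352 at 4 h, whereas *Mylip* is lowest at 1 h, between 656 and 848.

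Among the receptors, *Pparg* (ENSMUSG00000000440, chr6:115360951-115490399 in GRCm38, plus strand) had 1016, 1024, 1077 and 1186 normalized counts in untreated BMDMs of mice 1 to 4. At 1 h these were 1020, 1011, 1061 and 1106, and at 4 h they were 204, 216, 255 and 352. The untreated and 1 h libraries thus covered the same range, and all 4 libraries of 4 h lay far below both. The log2 fold change was -0.04 (SE 0.12, adjusted p = 0.889) at 1 h and -2.05 (SE 0.13, adjusted p = 1.24e-08) at 4 h. Within mice the difference at 4 h ran from -2.31 to -1.75 on the log2 scale, and 4 of 4 mice were lower. *Pparg* ranked 261 of 12386 genes by p at 4 h. From 1 h to 4 h it fell by 2.02 on the log2 scale (SE 0.13, adjusted p = 2.39e-08), so the change between the times was itself beyond the spread between libraries.

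The LXR genes gave no such change. *Nr1h2*, which encodes LXRβ (ENSMUSG00000060601, chr7:44549616-44553951, minus strand), had 1993, 2236, 2000 and 2128 normalized counts in untreated BMDMs, 1922, 2324, 2270 and 2707 at 1 h, and 2370, 2342, 2524 and 2229 at 4 h. The groups overlapped. Its log2 fold change was 0.14 (SE 0.08, adjusted p = 0.284) at 1 h and 0.18 (SE 0.08, adjusted p = 0.107) at 4 h, with 4 of 4 mice higher at 4 h. With the mouse as a block the adjusted p at 4 h was 0.0478 for the same log2 fold change of 0.18, and it was also under 0.05 in a fit of only the untreated and 4 h libraries (0.0284) and without the 1 h library of mouse 1 (0.0459) or of mouse 4 (0.0493).

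*Nr1h3*, which encodes LXRα (ENSMUSG00000002108, chr2:91184061-91202834, minus strand), was the lowest of the 10 genes, with 226, 208, 232 and 194 normalized counts in untreated BMDMs. It had 244, 167, 231 and 183 at 1 h and 185, 140, 205 and 196 at 4 h. The ranges overlapped at both times, and the lowest library of each fenoterol group was that of mouse 2. The log2 fold change was -0.06 (SE 0.14, adjusted p = 0.842) at 1 h, with a 95% interval from -0.37 to 0.25, and -0.24 (SE 0.14, adjusted p = 0.210) at 4 h, with an interval from -0.55 to 0.07. A fall of *Nr1h3* by a log2 difference of up to 0.55 at 4 h therefore lies within the interval.

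The 2 efflux transporters moved in opposite directions at 4 h. *Abcg1*, which moves cholesterol to high-density lipoprotein (ENSMUSG00000024030, chr17:31057675-31117988, plus strand), had 5416, 5004, 6112 and 4495 normalized counts in untreated BMDMs, 3558, 3111, 4057 and 3360 at 1 h, and 2659, 2113, 3059 and 2456 at 4 h. In each of the 4 mice the 1 h value was below the untreated one and the 4 h value was below that at 1 h, and neither fenoterol group overlapped the untreated group or the other. Its log2 fold change was -0.58 (SE 0.12, adjusted p = 0.00218) at 1 h and -1.03 (SE 0.12, adjusted p = 5.33e-06) at 4 h. The further fall between 1 h and 4 h was -0.45 on the log2 scale (SE 0.12, adjusted p = 0.00641).

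*Abca1*, which loads cholesterol and phospholipid onto lipid-poor apolipoprotein A-I (ENSMUSG00000015243, chr4:53030787-53159895, minus strand), had 17174, 19098, 14308 and 16022 normalized counts in untreated BMDMs and 14716, 20261, 16720 and 15624 at 1 h. At 4 h it had 17963, 24334, 20327 and 20773. Mouse 2 was the highest in every group, and the lowest library of 4 h, that of mouse 1, lay below the highest untreated one, so the groups overlapped although 4 of 4 mice rose. On the log2 scale the change was 0.02 (SE 0.11, adjusted p = 0.955) at 1 h and 0.32 (SE 0.11, adjusted p = 0.0332) at 4 h. In the fit blocked by mouse the log2 fold change was 0.32 with an adjusted p of 0.000336. In the fit without the block the call was lost in 6 of the cases with 1 library left out: without the untreated library of mouse 1, 3 or 4, or the 4 h library of mouse 2, 3 or 4, the adjusted p was 0.0526 to 0.114, with log2 fold changes from 0.24 to 0.34.

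*Apoe*, which encodes the apolipoprotein that macrophages release as an acceptor of their own cholesterol (ENSMUSG00000002985, chr7:19696109-19699188, minus strand), had 93647, 135453, 99769 and 122135 normalized counts in untreated BMDMs, 82326, 111381, 100365 and 117507 at 1 h, and 81360, 103058, 98227 and 81088 at 4 h. The untreated values spread by 19468 (SD, n = 4) about a mean of 112751, and the groups overlapped. On the log2 scale the change was -0.13 (SE 0.13, adjusted p = 0.562) at 1 h and -0.31 (SE 0.13, adjusted p = 0.0760) at 4 h, where 4 of 4 mice were lower. With the mouse as a block the log2 fold change at 4 h was -0.30 with an adjusted p of 0.00295. It was also under 0.05 by DESeq2 (0.0446), with no filter on low counts (0.0410) and without the untreated library of mouse 1 (0.0346, log2 fold change -0.39).

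*Mylip* had the largest change of the 10 genes at 1 h. It encodes IDOL, an E3 ubiquitin ligase (ENSMUSG00000038175, chr13:45389742-45412022, plus strand), and had 2036, 2149, 2322 and 1916 normalized counts in untreated BMDMs. The values were 656, 745, 848 and 802 at 1 h and 1172, 1046, 1128 and 1110 at 4 h. The groups did not overlap: all 4 libraries of 1 h were the lowest, and those of 4 h lay between them and the untreated ones. The log2 fold change was -1.46 (SE 0.08, adjusted p = 3.68e-09) at 1 h, rank 120 of 12386 genes by p, and -0.92 (SE 0.08, adjusted p = 2.80e-07) at 4 h. Between 1 h and 4 h *Mylip* rose by a log2 difference of 0.55 (SE 0.08, adjusted p = 8.28e-05) in 4 of 4 mice.

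*Srebf1*, which encodes the SREBP1 factors of fatty acid synthesis (ENSMUSG00000020538, chr11:60199089-60222581, minus strand), had 2245, 2055, 2078 and 2100 normalized counts in untreated BMDMs, 2363, 2169, 2469 and 2495 at 1 h, and 3811, 3046, 3479 and 2913 at 4 h. The 1 h libraries overlapped the untreated ones, and all 4 libraries of 4 h were above both groups. The log2 fold change was 0.16 (SE 0.08, adjusted p = 0.180) at 1 h and 0.64 (SE 0.08, adjusted p = 1.19e-05) at 4 h. Counts are per gene, so the *Srebf1* isoforms are not separated, and 1.935% of its exon bases lie opposite exons of *Rai1*, which held 6503 counts in all against 31504 for *Srebf1*.

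The genes of cholesterol ester turnover differed from each other in time. *Soat1*, the esterifying enzyme (ENSMUSG00000026600, chr1:156424525-156474331, minus strand), had 7659, 6992, 6924 and 6702 normalized counts in untreated BMDMs, 7441, 7148, 6826 and 6658 at 1 h, and 4933, 4527, 4345 and 4898 at 4 h. The untreated and 1 h values covered the same range, and all 4 libraries of 4 h were below both. On the log2 scale *Soat1* changed by -0.01 (SE 0.06, adjusted p = 0.938) at 1 h, with a 95% interval from -0.14 to 0.12, and -0.60 (SE 0.06, adjusted p = 1.62e-06) at 4 h.

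*Nceh1*, which encodes a neutral cholesterol ester hydrolase (ENSMUSG00000027698, chr3:27182965-27284608, plus strand), had 9556, 8472, 10274 and 8915 normalized counts in untreated BMDMs, 13294, 11919, 12604 and 11627 at 1 h, and 11305, 10073, 10948 and 10904 at 4 h. All 4 libraries of 1 h were above the untreated range and above all 4 of 4 h, while the lowest of 4 h, that of mouse 2, fell within the untreated range. As a log2 fold change this was 0.41 (SE 0.07, adjusted p = 0.000382) at 1 h and 0.22 (SE 0.07, adjusted p = 0.0174) at 4 h. When blocked by mouse the rise at 4 h had an adjusted p of 0.000848. In the fit without the block, leaving out the untreated library of mouse 2 or of mouse 4 gave an adjusted p of 0.0600 or 0.0683, with log2 fold changes of 0.17 and 0.19.

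**Figure D2:**
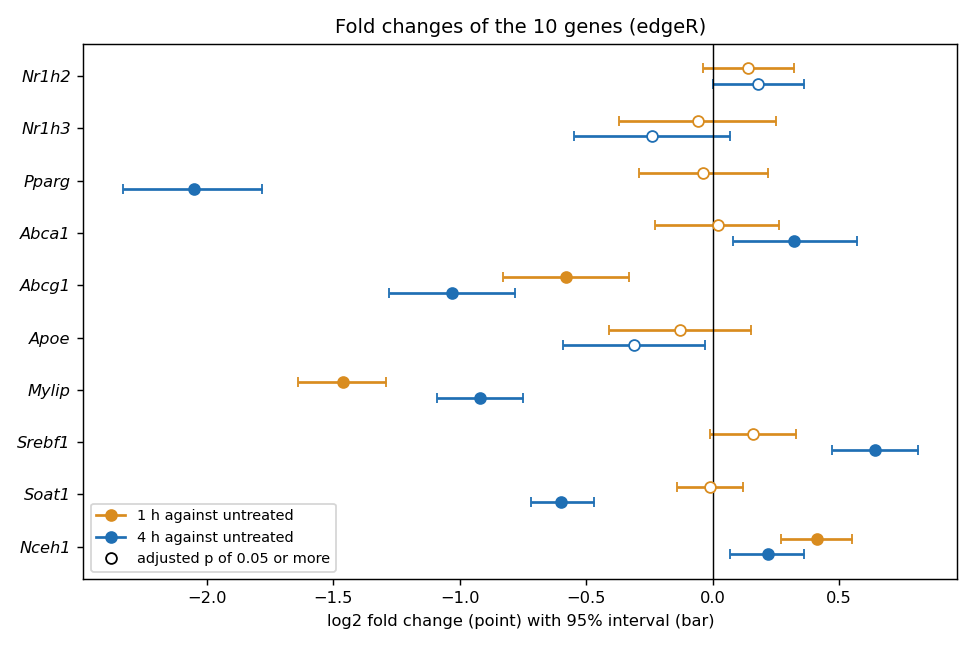
Log2 fold change (horizontal axis) of each of the 10 genes at 1 h and at 4 h against untreated BMDMs, as edgeR's estimate (point) with its 95% interval (bar), and open points where the adjusted p was 0.05 or more. The largest fall at 1 h is that of *Mylip* (-1.46) and at 4 h that of *Pparg* (-2.05), while the interval of *Nr1h3* spans 0 at both times.

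The direct comparison of 4 h with 1 h showed which levels differed between these times, by further change or by a return toward the untreated level. Such a return was seen for *Mylip* and *Nceh1*. Of the 10 genes, 3 were higher at 4 h than at 1 h (*Abca1*, *Mylip* and *Srebf1*) and 4 were lower (*Pparg*, *Abcg1*, *Soat1* and *Nceh1*), against 18.7% and 19.8% of all genes tested. *Srebf1* was higher by 0.48 (SE 0.08, adjusted p = 0.000225) and *Soat1* lower by -0.59 (SE 0.06, adjusted p = 2.81e-06) on the log2 scale. *Abca1* was higher by 0.31 (SE 0.11, adjusted p = 0.0431) and *Nceh1* lower by -0.19 (SE 0.07, adjusted p = 0.0314). With the mouse as a block the adjusted p of these last calls was 0.000500 and 0.00242, and without the block both were lost in some cases with 1 library left out, at differences close to those given. For *Abca1* the log2 difference was 0.23 to 0.32 and the adjusted p 0.0538 to 0.140 without the untreated library of mouse 1 or 4, the 1 h library of mouse 1, 3 or 4, or the 4 h library of mouse 2, 3 or 4. For *Nceh1* the difference was -0.20 to -0.16 and the adjusted p 0.0514 to 0.0962 without the 1 h library of mouse 1 or 3 or the 4 h library of mouse 2, 3 or 4, and scaling by library size alone gave a log2 difference of -0.10 (adjusted p = 0.239). With no filter on low counts the adjusted p of *Nceh1* was 0.0582. *Nr1h2*, *Nr1h3* and *Apoe* differed by 0.04, -0.18 and -0.18 (adjusted p = 0.769, 0.353 and 0.317).

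Levels were compared between genes as normalized counts per kb of merged exon. In untreated BMDMs *Apoe* stood far above the others with a mean of 52737 per kb, rank 8 of 12375 genes. *Nceh1* (1771) and *Abca1* (1607) followed, with ranges that overlapped. *Soat1* (722), *Abcg1* (720), *Mylip* (651) and *Nr1h2* (623) formed a run in which each overlapped the next. *Srebf1* (376) and *Pparg* (364) also overlapped, and *Nr1h3* was lowest at 85.4 per kb. LXRβ mRNA thus outnumbered LXRα mRNA in every library, since the lowest *Nr1h2* level of any library was 573 per kb and the highest *Nr1h3* level was 97.2.

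At 1 h the order was *Apoe* (48127 per kb), *Nceh1* (2353), *Abca1* (1624), *Soat1* (717), *Nr1h2* (688), *Abcg1* (483), *Srebf1* (421), *Pparg* (355), *Mylip* (236) and *Nr1h3* (82.1), where only *Soat1* and *Nr1h2*, and *Abcg1* and *Srebf1*, overlapped as neighbors. By 4 h *Apoe* remained first at 42532 per kb, *Nceh1* (2057) and *Abca1* (2012) again overlapped, and *Nr1h2* (706) and *Srebf1* (588) had passed *Soat1* (478). *Abcg1* (352) and *Mylip* (345) overlapped, as did *Pparg* (87.0) and *Nr1h3* (72.2) at the bottom. *Pparg* went from rank 2479 of 12375 genes without treatment to rank 6637 at 4 h.

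**Figure D3:**
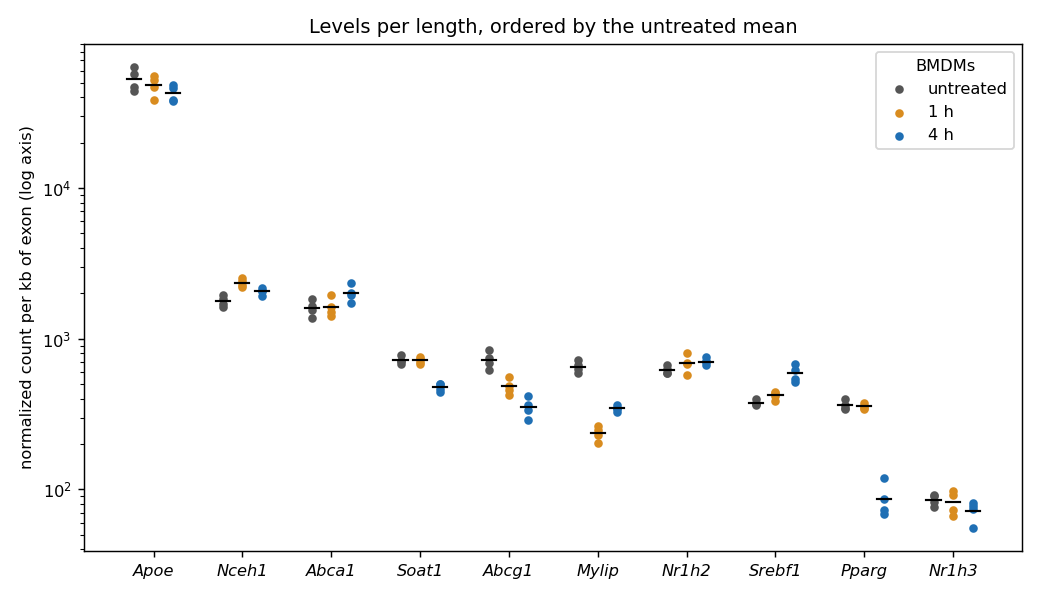
Normalized count per kb of exon (vertical log axis) of the 10 genes in each library, ordered along the horizontal axis by the untreated mean, with a bar at the mean of each group of 4 libraries. *Apoe* lies at or above 37927 per kb in all libraries, and *Pparg* drops from between 344 and 401 without treatment to between 69.2 and 119 at 4 h.

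Receptor partners and coregulators, from a list of 20 genes of which 17 were tested, included 8 falls and 0 rises at 4 h, with 9 not called, against 20.4% lower and 19.7% higher among all genes. At 1 h 1 was higher and 3 were lower, against 10.0% and 10.1%. The median log2 fold change of the list was -0.06 at 1 h and -0.13 at 4 h. *Ncoa3*, a nuclear receptor coactivator, went from 6850 to 7505 normalized counts in untreated BMDMs to 4761 to 5120 at 1 h (log2 fold change -0.52, adjusted p = 8.53e-07) and 3592 to 3773 at 4 h (-0.96, adjusted p = 7.62e-10). *Ep300*, a histone acetyltransferase, was lower at 1 h (-0.52, adjusted p = 3.12e-05), with -0.10 at 4 h (adjusted p = 0.244) and a rise of 0.42 from 1 h to 4 h (adjusted p = 0.000131).

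*Ppard*, which encodes another PPAR, was higher at 1 h (0.38, adjusted p = 0.00425) and lower at 4 h (-0.59, adjusted p = 4.81e-05). *Rxrb* fell by 0.34 at 1 h on the log2 scale (adjusted p = 0.000383) and fell by 0.22 at 4 h (adjusted p = 0.00479). *Rxra*, named here after its values were seen because RXRs pair with LXR and PPARG, had -0.24 at 1 h (adjusted p = 0.0639, and 0.0104 with the mouse as a block) and -0.49 at 4 h (adjusted p = 0.000336). *Tbl1x*, a subunit of the NCoR corepressor complex, fell at 4 h (-0.73, adjusted p = 1.83e-07), as did the coactivator gene *Ppargc1b* (-1.12, adjusted p = 0.0105), which held only 18.5 to 41.7 normalized counts at 4 h against 39.5 to 83.9 without treatment. In the fit blocked by mouse, 6 of the 17 were called at 1 h (2 higher, 4 lower) and 9 at 4 h (1 higher, 8 lower). The calls added beside *Rxra* were those of *Nrip1* at 1 h (0.30, adjusted p = 0.00509) and *Med1* at 4 h (0.16, adjusted p = 0.0363), both named for this count. *Ppara*, *Ppargc1a* and *Rxrg* did not pass the filter on low counts.

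Other LXR target genes, 13 tested of 16 listed, went both ways. At 1 h 2 were higher and 1 lower, against 10.0% and 10.1% of all genes. At 4 h 5 were higher and 3 lower, against 19.7% and 20.4%. The median log2 fold changes were 0.13 and 0.24. *Ttc39b* showed the largest rise, from 322 to 377 normalized counts in untreated BMDMs to 555 to 767 at 1 h (log2 fold change 0.92, adjusted p = 1.58e-05) and 1960 to 2479 at 4 h (2.71, adjusted p = 1.39e-10). Its product is known to promote the degradation of LXR protein. *Arl4c*, a small GTPase gene, rose by 1.40 at 1 h (adjusted p = 1.02e-09) and stood at 0.81 at 4 h (adjusted p = 2.10e-07). *Scd2*, a fatty acid desaturase gene, rose by 1.64 at 4 h (adjusted p = 0.000390), with 4084 to 8507 normalized counts against 1160 to 2504.

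On the other side, *Mertk*, a receptor for the engulfment of apoptotic cells, fell by 1.51 on the log2 scale at 4 h (adjusted p = 5.13e-11) and *Lpl*, lipoprotein lipase, fell by 1.14 (adjusted p = 0.000164). *Mertk* was also lower at 1 h (-0.20, adjusted p = 0.0153), a call that was lost without the untreated library of mouse 2 (0.0546) or the 1 h library of mouse 1 (0.0519) or mouse 3 (0.0522), at log2 fold changes of -0.18 to -0.17. With the mouse as a block it was -0.20 with an adjusted p of 0.00422. When blocked by mouse, 6 of the 13 genes were called at 1 h, 5 higher and 1 lower, against 13.3% and 13.7% of all genes. The added rises under the block were those of *Scd2* (0.22, adjusted p = 0.0297), *Fasn* (0.31, adjusted p = 0.00368) and *Lpl* (0.24, adjusted p = 0.00234), of which *Fasn* is named for this count. At 4 h the block called 12 of the 13 genes, 7 higher and 5 lower, in place of 8, where it called 23.6% of all genes higher and 23.8% lower. The 4 added there were *Scd1* (1.00, adjusted p = 3.05e-05), *Fasn* (0.24, adjusted p = 0.0132), *Pltp* (-0.22, adjusted p = 0.00262) and *Smpdl3a* (-0.24, adjusted p = 0.00599), whose adjusted p without the block were 0.114, 0.328, 0.121 and 0.0991. *Abcg4*, *Apoc2* and *Mlxipl* were not tested.

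PPAR target genes were fewer, 9 tested of 12, with 2 higher and 2 lower at 1 h and 2 higher and 3 lower at 4 h. Among all genes 10.0% were higher and 10.1% lower at 1 h, and 19.7% higher and 20.4% lower at 4 h. The share of the list that was higher at 4 h lay near that of all genes. The median log2 fold change was -0.04 and -0.10. *Angptl4*, a secreted inhibitor of lipoprotein lipase, fell at both times, from 64.6 to 114 normalized counts in untreated BMDMs to 20.6 to 44.1 at 1 h (log2 fold change -1.57, adjusted p = 0.000912) and 19.5 to 42.8 at 4 h (-1.38, adjusted p = 0.000949). *Fabp4*, a fatty acid-binding protein gene, was at -0.04 at 1 h (adjusted p = 0.913) and fell at 4 h (-0.89, adjusted p = 0.000185), and *Plin2*, a lipid droplet coat gene, fell by 0.27 at 1 h (adjusted p = 0.00740) and fell by 0.67 at 4 h (adjusted p = 9.68e-07).

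The mitochondrial carnitine carrier gene *Slc25a20* was higher at 1 h (0.40, adjusted p = 0.00326) and at 4 h (0.38, adjusted p = 0.00193). The scavenger receptor gene *Cd36* was higher at 1 h (0.37, adjusted p = 0.0258) and at -0.09 at 4 h (adjusted p = 0.536). The call of *Cd36* was lost with scaling by library size (adjusted p = 0.0660) and without the untreated library of mouse 2 (0.0849) or 4 (0.0634) or the 1 h library of mouse 1 (0.0905) or 3 (0.0582), at log2 fold changes of 0.29 to 0.36, while the mouse as a block gave 0.37 with an adjusted p of 0.00177. With the mouse as a block *Fabp5*, named for this count, was also called higher at 1 h (0.31, adjusted p = 0.000607) and at 4 h (0.18, adjusted p = 0.0192), which made 5 and 6 of the 9 genes called. *Cidec* and *Pdk4* were among those not tested.

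Genes of sterol uptake, release and oxysterol synthesis, 21 tested of 22, had 5 higher and 2 lower at 1 h, against 10.0% and 10.1% of all genes. At 4 h 6 were higher and 7 lower, against 19.7% and 20.4%. The median log2 fold changes were 0.04 and -0.04. *Gramd1b*, which encodes a sterol carrier of the endoplasmic reticulum, rose at 1 h (log2 fold change 0.62, adjusted p = 0.00443) and was at -0.04 at 4 h (adjusted p = 0.837). *Lipa*, the lysosomal acid lipase that frees cholesterol from lipoproteins, was at 0.04 at 1 h (adjusted p = 0.738) and fell at 4 h (-1.03, adjusted p = 6.77e-09).

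Genes for 2 enzymes that make oxysterol ligands of LXR were lower. *Cyp27a1*, the sterol 27-hydroxylase, fell by 0.38 at 1 h (adjusted p = 0.0154) and fell by 1.21 at 4 h (adjusted p = 3.41e-07). The 1 h call of *Cyp27a1* was lost without the untreated library of mouse 2 (adjusted p = 0.0562) or the 1 h library of mouse 1 (0.0518) or mouse 3 (0.0569), at log2 fold changes of -0.35 to -0.32, while the mouse as a block gave -0.38 with an adjusted p of 2.44e-05. *Ch25h*, the cholesterol 25-hydroxylase, was near the floor of detection, with 10 to 20 raw counts per untreated library, 1 to 4 per library after 1 h and 0 to 8 after 4 h. Its fitted log2 fold change was -2.61 (SE 0.65, adjusted p = 0.00972) at 1 h and -2.65 (SE 0.63, adjusted p = 0.00372) at 4 h, values that depend on the prior count at this depth. With 1 library left out the value at 4 h ran from -3.88 (without the 4 h library of mouse 4) to -2.26 (without that of mouse 3), with adjusted p of at most 0.0133. In the fit blocked by mouse, 9 of the 21 sterol genes were called at 1 h, with *Insig1* (0.38, adjusted p = 0.000740) and *Stard3* (-0.18, adjusted p = 0.0205), named for this count, added to the 7, and 13 at 4 h, as without it. *Cyp7b1* was not tested.

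**Figure D4:**
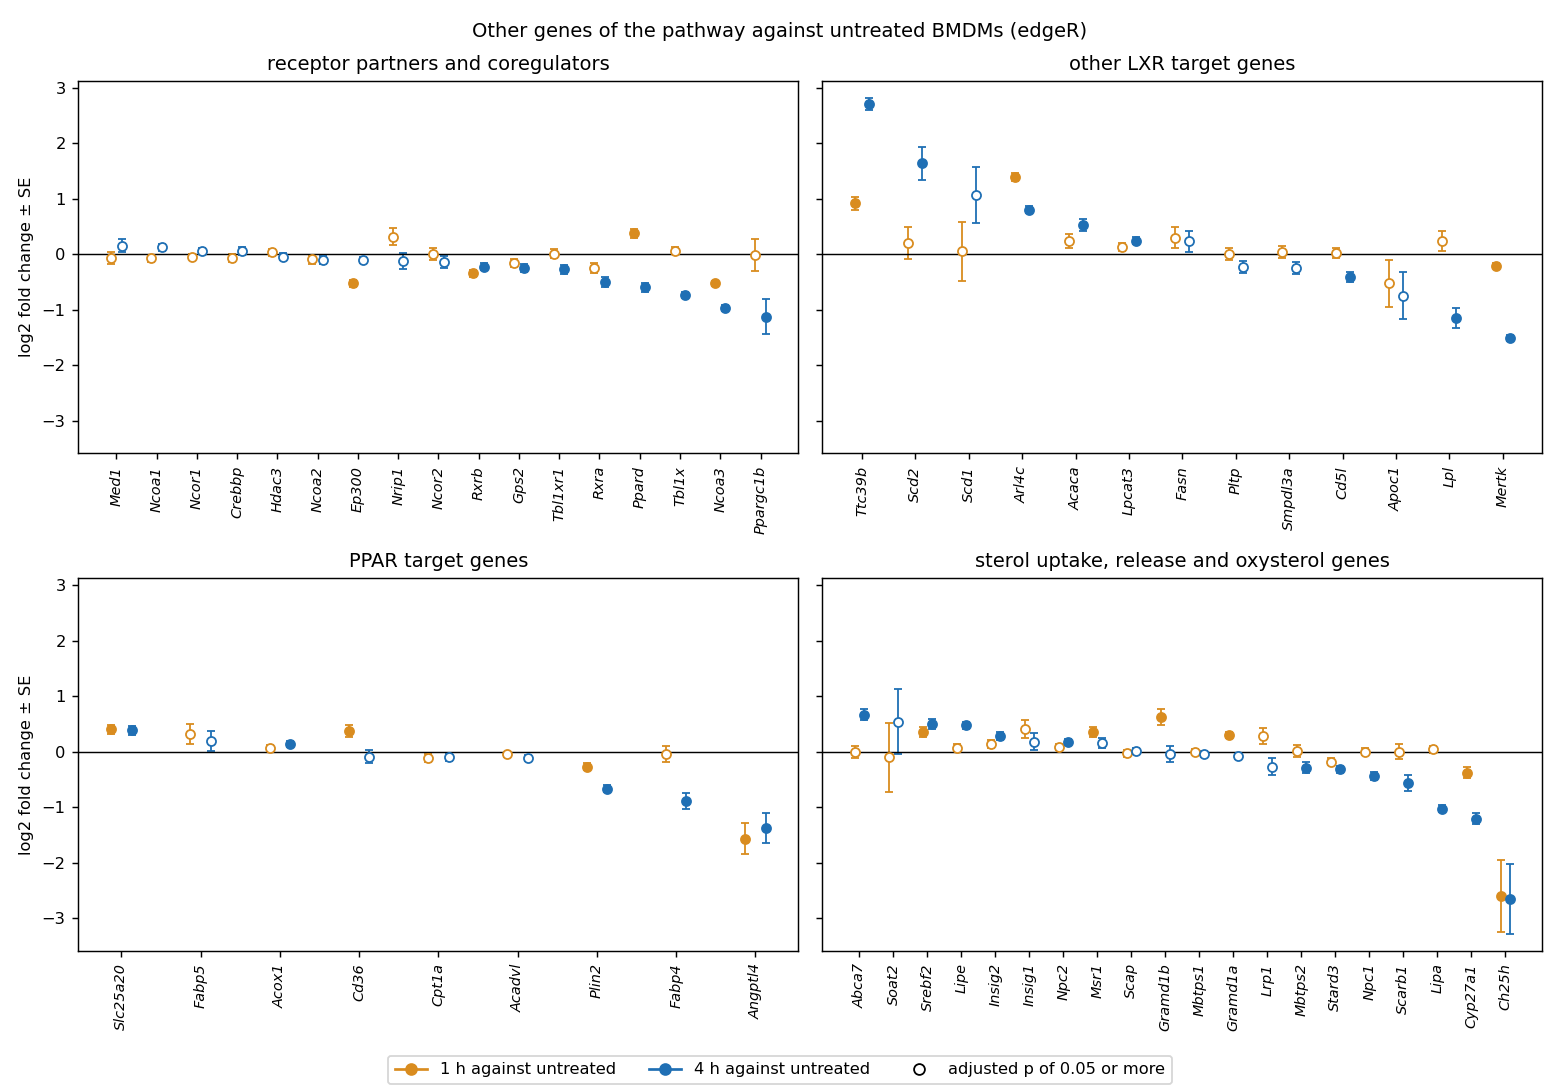
Log2 fold change ± SE (vertical axis) at 1 h and 4 h against untreated BMDMs for tested genes of 4 lists, along the horizontal axis by list in falling order of the change at 4 h, with open points where the adjusted p was 0.05 or more. *Ttc39b* is the highest point (2.71 at 4 h) and *Ch25h* the lowest (-2.65 at 4 h).

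Against all genes, the shares called in these lists are to be read beside 10.0% higher and 10.1% lower at 1 h and 19.7% higher and 20.4% lower at 4 h, or with the mouse as a block beside 13.3% and 13.7% at 1 h and 23.6% and 23.8% at 4 h. From 1 h to 4 h, 2 receptor partners and coregulators were higher and 7 lower, 2 other LXR targets were higher and 4 lower, 0 PPAR targets were higher and 3 lower, and 2 sterol genes were higher and 8 lower, against 18.7% and 19.8% of all genes. With the mouse as a block, 5 other LXR targets were higher and 6 lower, against 23.0% and 23.6% of all genes, with *Lpcat3* (0.12, adjusted p = 0.0398), *Scd1* (0.92, adjusted p = 7.74e-05), *Acaca* (0.28, adjusted p = 0.0127), *Pltp* (-0.22, adjusted p = 0.00213) and *Smpdl3a* (-0.29, adjusted p = 0.00187) added, all named for this count. The block also gave 4 receptor partners and coregulators higher and 7 lower, 3 sterol genes higher and 11 lower, and the same counts of PPAR targets as without it.

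For the 3 genes with a log2 fold change of at least 1 in size, the nearest patterns over the 12 libraries were sought among 10288 genes, by the root mean square distance of log2 values centered on each gene's mean. *Igf2bp2* (distance 0.184) and *Fgd4* (0.192) lay nearest to *Pparg*, with log2 fold changes at 4 h of -1.89 and -2.02. *Angptl7* (0.124) and *Msrb2* (0.128) lay nearest to *Abcg1*, with -1.03 and -1.07 at 4 h. *Zc3h12d* (0.0839) and *Themis2* (0.130) lay nearest to *Mylip*, with -1.46 and -1.48 at 1 h and -0.81 and -1.08 at 4 h. These distances describe likeness over 12 libraries that share mice and groups.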

How the data were processed

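The data were the raw counts per gene that the authors deposited for 12 libraries, in 1 table of 53379 Ensembl genes. Per the submitters' notes and the study's methods, stranded TruSeq mRNA libraries (single-end, 50 bases) were mapped to GRCm38 with TopHat2 2.0.11 and counted with HTSeq 0.8.0, and the strand option and annotation release are not given in the sources used here. Groups were taken from the labels. The 10 genes and all lists were chosen with earlier results of these data known.

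Counts were tested with edgeR 4.0.16 in R 4.3.3: filterByExpr on the 3 groups (12386 genes kept), TMM scaling, and glmQLFit with glmQLFTest in 1 fit of all 12 libraries with a mean per group, two-sided, with Benjamini-Hochberg adjustment and a threshold of 0.05. The study scaled with vsn and tested with limma, and edgeR was used here because the deposited values are counts. The SE is the log2 fold change divided by the square root of F, and 95% intervals use the t distribution. Normalized counts are scaled to the mean library size of the genes tested (19595982). Levels per kb divide them by the merged exon length of GENCODE M21. The scripts were tested on simulated data. Of the genes, 53274 matched GENCODE M21, the other 105 held 0.00461% of counts, 0 rows named no gene, and 29819 genes had no count.

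Same-numbered libraries came from the same mouse per the labels. Their deviations from the group means correlated with Pearson's r of 0.290 to 0.561 (median 0.389, 12 pairs), against -0.304 to 0.0912 (median -0.127, 36 pairs) for libraries of different mice, over 12386 genes. Replicates differed by more than sampling noise (chi-square per degree of freedom 9.29 to 19.4 over 18 pairs, biological coefficient of variation 0.112), so none was counted as a repeat. The totals leave counting error small beside this spread, except for genes with few counts.

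Genes named are the 10 genes, up to 4 called genes per list and time with the largest log2 fold change, any marker, and, for each of the 10 genes called with a log2 fold change of at least 1 in size, the 2 genes nearest in pattern among those whose mean normalized count reached 50. Genes named outside this rule are marked so, and some genes of the lists, though included in the counts, are not reported here. Exon bases shared with an opposite-strand gene are given for *Srebf1*, and 1.352% of those of *Nr1h3* overlap *Gm13783*, which held 1 count. Stretches of 50 bases found in another gene were 13 of 7335 for *Abcg1*, 10 of 3179 for *Mylip*, 17 of 5798 for *Srebf1* and 50 of 9875 for *Soat1*. The search for the changed LXR element was added after the exact one had been counted.

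Alternatives were DESeq2 1.42.0 (Wald test), limma-voom (limma 3.58.1), RLE size factors, scaling to the library totals alone, a mean count of at least 50 or no filter at all, a fit of 2 groups at a time, the mouse as a replicate block, and each library left out in turn. Tables and figures were made with Python 3.11.15, pandas 2.3.3 and matplotlib 3.10.9.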

Additional observations from a re-analysis of the deposited data

Results flagged for a closer look

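For 7 of the 10 genes the change at 4 h differed from that at 1 h, tested directly as 4 h against 1 h by edgeR's quasi-likelihood test with Benjamini-Hochberg adjustment, where 18.7% of all genes tested were higher and 19.8% lower. The log2 differences were -2.02 for *Pparg* (adjusted p = 2.39e-08), -0.59 for *Soat1* (2.81e-06), -0.45 for *Abcg1* (0.00641) and -0.19 for *Nceh1* (0.0314), and 0.55 for *Mylip* (8.28e-05), 0.48 for *Srebf1* (0.000225) and 0.31 for *Abca1* (0.0431). The calls of *Abca1* and *Nceh1* were lost in some cases with 1 library left out, and held with the mouse as a block, as given above.

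Within groups, 4 of 93 sets of 4 libraries had a lowest or highest value set apart by Dixon's test, where chance gives 4.65. None concerned the 10 genes. At 4 h *Scd2* had 8507 normalized counts in mouse 1 against 4084 to 4319 in the others, and mouse 1 was also the highest without treatment (2504) and at 1 h (2913). The log2 fold change of *Scd2* at 4 h was 1.31 to 1.89 when single libraries were left out. *Tbl1x* had 1115 in mouse 3 at 4 h against 1225 to 1235, and *Angptl4* had 19.5 in mouse 4 at 4 h against 39.8 to 42.8. *Gramd1b* had 5475 in mouse 4 at 1 h against 7357 to 7516, and mouse 4 was also its lowest library in the other groups (3586 and 3498).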

How the results depend on the processing

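The number of the 10 genes called was 3 under each of the 20 alternatives at 1 h, 5 to 9 at 4 h and 5 to 7 from 1 h to 4 h, and 5 to 8 at 4 h when single libraries were left out. Counts of called genes under an alternative were tallied for the 10 genes in each comparison and for the lists against untreated BMDMs. Of these, 219 stayed within 1.5 times the value given above and 1 did not: with the mouse as a replicate block, 6 other LXR target genes were called at 1 h in place of 3, and the cause was not tested. List counts from 1 h to 4 h were outside this tally, and there the block called 11 other LXR targets in place of 6. For single fold changes of the 10 genes, 560 kept direction and side of the threshold, 23 lost a call, 8 gained one and 9 changed sign. For the list genes named by the rule, at the times they were called, 606 kept both and 11 lost a call. Other list genes were not in this tally, so it could hold no gained call. A mean count of at least 50 left no value for *Ch25h* or for *Ppargc1b*. Among the 10 genes the replicate block gained the calls of *Nr1h2* (0.18) and *Apoe* (-0.30) at 4 h and changed no other call of theirs, and the calls it added in the lists are given above.

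No sign change concerned a called value. With single libraries left out, the log2 fold change at 1 h ran from -0.09 to 0.09 for *Abca1*, from -0.04 to 0.03 for *Soat1*, from -0.06 to 0.02 for *Pparg* and from -0.15 to 0.03 for *Nr1h3*, and from 1 h to 4 h it ran from -0.04 to 0.12 for *Nr1h2*. *Abca1* at 1 h was -0.05 with scaling by library size only, -0.05 without the untreated library of mouse 3 and -0.09 without the 1 h library of mouse 2. *Soat1* at 1 h was 0.03 without the untreated library of mouse 1, and 0.01 without the 1 h library of mouse 3 or of mouse 4. *Pparg* at 1 h was 0.02 without the untreated library of mouse 4, *Nr1h3* at 1 h was 0.03 without the 1 h library of mouse 2, and *Nr1h2* from 1 h to 4 h was -0.04 without the 1 h library of mouse 1. Scaling by library size only moved the median of all genes by -0.069, 0.024 and 0.092 at 1 h, at 4 h and between them, and the share of calls that were higher from 49.8% to 32.5% at 1 h and from 48.6% to 65.7% between the times. With 4 mice per group and no protein or sterol measurement used here, differences smaller than the 95% intervals given could not be resolved in the fit without the block, which gave those intervals. With the mouse as a block *Nr1h2* and *Apoe* were called at 4 h, as given above.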

Other observations

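Ratios of levels per kb were formed within each library after the values had been seen, so they are given as values with no test. *Abca1* over *Abcg1* ran from 1.65 to 2.69 without treatment, from 2.90 to 4.59 after 1 h and from 4.68 to 8.11 after 4 h, and the 3 ranges did not overlap. *Nceh1* over *Soat1*, the mRNA of a cholesterol ester hydrolase over that of the esterifying enzyme, was 2.26 to 2.77, 3.11 to 3.44 and 4.15 to 4.70, again without overlap. The lipase genes *Lipa* and *Lipe*, which are not in this ratio, changed by -1.03 and 0.47 on the log2 scale at 4 h. Enzyme activity was not measured in the data used here. *Nr1h2* over *Nr1h3*, LXRβ over LXRα, was 6.46 to 8.24, 5.90 to 11.1 and 8.51 to 12.6, where the 1 h range overlapped both others.

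The summed macrophage markers overlapped between the groups, but single markers moved in opposite directions within the sum. From untreated to 4 h the mean of *Cd14* went from 12816 to 73277 normalized counts and that of *Lyz2* from 488584 to 429910. The overlap of the sums thus includes the rise of *Cd14*. *Cd14*, the lipopolysaccharide co-receptor, rose by 2.39 at 1 h (adjusted p = 3.45e-11) and by 2.52 at 4 h (adjusted p = 3.84e-11) on the log2 scale. At 4 h *Fcgr1* (0.72, adjusted p = 0.000730) and *Itgam* (0.42, adjusted p = 7.58e-06) were also higher, and *Adgre1* (-0.21, adjusted p = 0.0183), *Cd68* (-0.22, adjusted p = 0.0296) and *Csf1r* (-0.26, adjusted p = 0.0394) lower. *Lyz2*, which held most of the sum, was at -0.18 at 4 h (adjusted p = 0.0704), with 391568 to 466602 normalized counts against 473320 to 514260 and 4 of 4 mice lower, and the mouse as a block gave -0.19 with an adjusted p of 0.00256.

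Sterol genes outside the naming rule went both ways at 4 h, and those given here are named after their values were seen. *Abca7* (0.66, adjusted p = 0.000148), *Srebf2* (0.50, adjusted p = 0.000564), *Lipe* (0.47, adjusted p = 8.09e-05), *Insig2* (0.28, adjusted p = 0.00469) and *Npc2* (0.17, adjusted p = 0.0394) were higher. *Scarb1* (-0.57, adjusted p = 0.00545), *Npc1* (-0.44, adjusted p = 8.02e-05), *Stard3* (-0.32, adjusted p = 0.000743) and *Mbtps2* (-0.29, adjusted p = 0.0300) were lower.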
